A study of Mus musculus with 1073 samples.

Results

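The enzymes of haem biosynthesis were followed in single cells of the mouse yolk sac, the first blood-forming tissue of the embryo. The genes were *Alas1*, *Alas2*, *Slc25a38*, *Alad*, *Uros*, *Urod*, *Cpox*, *Ppox* and *Fech*. They were listed for their place in the pathway, but with earlier results of these data known. All 9 were present in the filtered tables, among 15967 genes. The comparisons addressed are *Alas1* against *Alas2*, and which steps of the pathway are higher in primitive erythroid cells than in the other populations.

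The study sorted yolk sac cells from E7.25 to E10.5 into 13 populations and sequenced each cell as a library of its own. The E7.25 and E7.75 cells came from embryos of genotype *Flk1*-GFP/+ and were sorted as *Flk1*-GFP+, which marks cells with an active *Flk1* (*Kdr*) locus. The later cells came from C57BL/6 embryos: erythro-myeloid progenitors (EMP) at E8.25, E8.5, E9.5 and E10.5, primitive erythroid cells (EryP) and megakaryocytes (Mk) at E8.5 and E10.5, macrophages (Mac) at E10.5, and endothelium (Endo) at E8.5 and E10.5. EryP were the TER119+ cells and all other later populations were TER119-, so the gate itself chose EryP by an erythroid surface protein. EMP carried CD41 with CDH5 at E8.25 and E8.5, and CD41 at a low level with CD45 at E9.5 and E10.5. Mk carried CD41 without CDH5, Mac CD45 without CD41, and Endo CDH5 without CD41. No embryo, litter or pool is named for a cell, so each population is 1 sample, no test was run between populations, and spreads over cells are not replicate errors.

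Haem is made in a chain of reactions that begins and ends in the mitochondrion. ALAS joins glycine and succinyl-CoA into aminolevulinic acid, the step that commits the cell to haem. *Alas1* encodes the form used by most tissues and is held down by haem. *Alas2*, on the X chromosome, encodes the erythroid form, and its messenger carries an iron-responsive element. SLC25A38 brings glycine into the mitochondrion. ALAD, UROS and UROD are among the enzymes that then work in the cytosol, CPOX and PPOX make protoporphyrin, and FECH inserts the iron. Primitive erythroid cells are the earliest red cells and fill with embryonic globins, each chain of which needs a haem.

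Of the 1073 cells captured, 926 were kept by the filter of the authors, with 483830 to 5943204 counts each. The E7.25 cells (73 and 74 in 2 lanes) and the E7.75 cells (53 and 87 in 2 lanes) were the largest populations, and only 3 of 25 captured E10.5 EryP cells passed. All E8.5 populations shared a flow cell with E7.25 and E8.25, while E7.75, E9.5 and E10.5 were read on the other. Later populations had a lane each, except that E10.5 EryP and E10.5 Mac shared lane 5. Capture, lane and population therefore cannot be told apart. Counts of *Xist* together with counts of Y-linked genes (5 or more of each), which a single mouse cell should not hold, were found in 10.96% (E10.5 Mk) to 74.7% (E8.5 Endo) of the cells of the 12 larger populations and in 0 of 3 E10.5 EryP cells. They were found in 45.5% of E8.5 EryP cells, and without all such cells the number of genes called higher was the same in each of the 6 comparisons made, and the log2 ratio of *Alas2* to *Alas1* in E8.5 EryP was 7.26 in place of 7.41. Levels are given as CPM, the read count of a gene scaled by 1 size factor per cell. The marker sums of E8.5 EryP and of Endo went with their labels, though other lists also held counts. All 6 erythroid markers had counts in E8.5 EryP, where the 4 macrophage markers and the mesoderm markers were at 0. There the 7 endothelial markers summed to a median of 3.45 CPM, the 5 megakaryocyte markers to 4.13 and the 4 progenitor markers to 29.9. In E8.5 Endo the 7 endothelial markers summed to a median of 2732 CPM and the 6 erythroid markers to 0 (0 to 177). *Klf1* and *Gata1* were at 0 there, while the other 4 erythroid markers had counts. In E10.5 Endo the endothelial and erythroid medians were 4783 and 1.35 CPM, with erythroid sums up to 3695 CPM. All 4 macrophage markers had counts in E10.5 Mac. The E8.5 Mk cells went partly against their label. The 6 erythroid markers, all with counts there, summed to a median of 25230 CPM (541 to 141447) in E8.5 Mk, against 103505 (40526 to 223824) in E8.5 EryP and 583 (0 to 5456) in E10.5 Mk. The 5 megakaryocyte markers summed to a median of 184 CPM (9.94 to 1642) in E8.5 Mk and 5331 (521 to 20723) in E10.5 Mk. The name E8.5 Mk is used here for the gate only.

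Promoter sequence was available for 8 of the 9 genes, as 11 windows of 250 bases before a start site (RefSeq, GRCm38.p6). Those of *Alas2*, *Cpox* and *Uros* are shown because they hold the letters AGATAA or TGATAA, in either orientation, the core bound by GATA factors. A match was present in 16.6% of all 32851 promoter windows of this length. In *Uros* the match lies at the inner of its 2 start sites, and none lies in the windows of *Alas1*, *Slc25a38*, *Alad*, *Urod*, *Ppox* or the outer *Uros* start. The stretches below are printed 5′ to 3′ on the strand of the gene with the matched letters in capitals. The *Alas2* stretch is chrX:150547167-150547374 (plus strand), which stops where the earliest annotated exon begins, *Cpox* is chr16:58669958-58670207 (plus strand), and for *Uros* only 30 bases at chr7:133702551-133702580 (minus strand) are given, since an annotated exon covers them.
Alas2: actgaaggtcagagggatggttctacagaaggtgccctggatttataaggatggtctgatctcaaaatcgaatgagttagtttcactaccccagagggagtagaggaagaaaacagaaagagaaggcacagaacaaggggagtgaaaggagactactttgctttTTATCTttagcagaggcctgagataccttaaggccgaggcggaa
Cpox: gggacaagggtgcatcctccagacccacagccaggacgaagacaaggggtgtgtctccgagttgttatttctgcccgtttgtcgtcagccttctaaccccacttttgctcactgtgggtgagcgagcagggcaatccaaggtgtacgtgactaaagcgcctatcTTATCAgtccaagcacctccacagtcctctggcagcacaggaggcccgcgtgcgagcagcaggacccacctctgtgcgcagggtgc
Uros: tctccctcagccTTATCAgtgacagagggc
In *Alas2* and in *Cpox* the match starts 86 bases before the start site, and in *Uros* 68 bases before it. The letters CCNCNCCC, the kind of CACCC box that KLF1 binds, were searched on both strands and were present in 45.9% of all windows. They occurred at 4 positions, 3 of them overlapping, between 42 and 19 bases before the *Alas2* start site, in the part that is annotated as exon. *Alad* also held them at 4 positions in 1 of its windows and at 2 in the other. Matches lay in both windows of *Alas1*, in *Slc25a38* and in the outer *Uros* window as well. There was none in *Cpox*, *Urod*, *Ppox* or the inner *Uros* window. A match is a description of the letters only.

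*Alas2* and *Alas1* had near opposite patterns over the populations. *Alas2* lies at chrX:150547375-150570638 on the plus strand and *Alas1* at chr9:106233455-106248654 on the minus strand (GRCm38). Of the *Alas2* exon bases 311 are shared with *Apex2* on the opposite strand, from which these libraries cannot tell reads apart. In E8.5 EryP all 66 cells held *Alas2*, at 370 CPM in the lowest cell, 1208 in the median cell and 3925 in the highest. In the same cells the median of *Alas1* was 0 CPM and the highest cell reached 311 CPM, with counts in 19 of 66 cells (28.8%, exact 95% interval 18.3 to 41.3%, covering counting error only). No E8.5 EryP cell held *Alas1* alone, and 71.2% held *Alas2* alone. The sums over the population were 162008 counts of *Alas2* (exact Poisson 95% interval 161220 to 162799) and 2613 of *Alas1* (2514 to 2715).

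Levels of different genes were compared per kilobase of exon. The *Alas2* level in E8.5 EryP was 580 CPM per kilobase, 170 times the 3.41 CPM per kilobase of *Alas1*, a log2 ratio of 7.41. With the longest transcript of each gene in place of all its exons, the log2 ratio was 6.79. In every E8.5 EryP cell *Alas2* was the higher of the pair. The ratio was 102.6 in E8.5 Mk, where 91.9% of cells had more *Alas2* than *Alas1* per kilobase.

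The 3 E10.5 EryP cells that passed the filter had *Alas2* at 2294, 4022 and 6508 CPM and no count of *Alas1*. With the *Alas1* count of 0 set to 3 counts over the group, *Alas2* per kilobase was 19450 times *Alas1* in these 3 cells. That figure covers counting error in these cells only and sets no bound for E10.5 EryP at large. A share of 0 in 3 cells sets no useful limit on the share of E10.5 EryP cells with *Alas1* (exact 95% interval 0 to 70.8%).

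**Figure D1:**
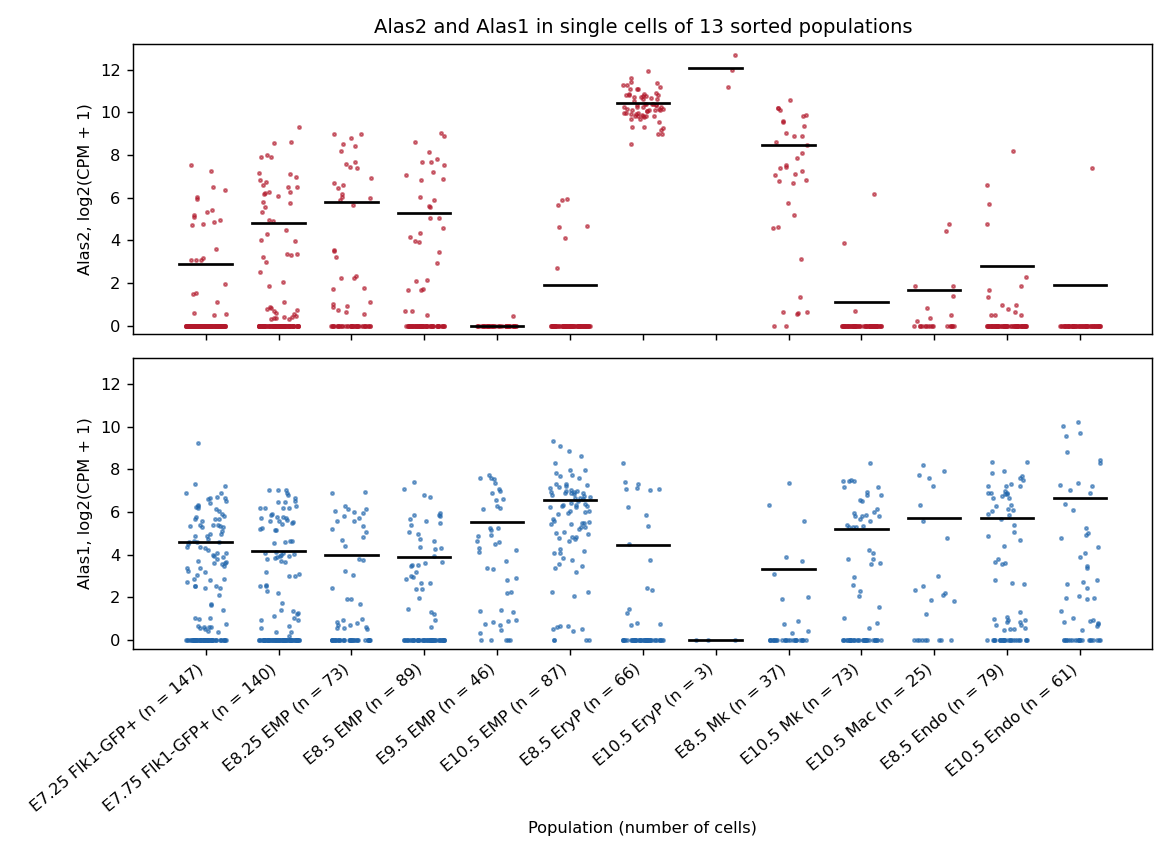
*Alas2* (top) and *Alas1* (bottom) in each cell, as log2(CPM + 1), by population, with the number of cells in parentheses and a black line at log2 of the population mean + 1. All E8.5 EryP and E10.5 EryP cells lie high for *Alas2*, E8.5 Mk cells spread from 0 to 1530 CPM, and *Alas1* is most evenly present in E10.5 EMP.

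The later EMP showed the opposite pair of values. In E10.5 EMP *Alas1* had a median of 63.1 CPM, a highest cell of 637 CPM and counts in 95.4% of 87 cells, while *Alas2* had a median of 0 and counts in 8.05%. In E9.5 EMP *Alas1* was found in 89.1% of 46 cells and *Alas2* as a single count in 1 cell. Per kilobase *Alas1* was 13.3 times *Alas2* in E10.5 EMP.

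The earlier EMP held both genes at low levels and often in different cells. In E8.5 EMP the mean of *Alas1* was 13.7 CPM and that of *Alas2* 38.1 CPM, both with a median of 0. Of 89 cells, 15.7% held both, 28.1% *Alas1* alone, 21.3% *Alas2* alone and 34.8% neither. In E8.25 EMP these shares were 23.3%, 26.0%, 23.3% and 27.4% of 73 cells. The early and the late EMP differed in their gate and in their flow cell, which cannot be told apart from the day.

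The *Alas2*-positive E8.5 EMP cells also held other erythroid genes. *Klf1*, an erythroid transcription factor, was found in 69.7% of the 33 cells with *Alas2* and in 16.1% of the 56 without. *Epor*, the erythropoietin receptor, was found in 90.9% and 51.8%, and *Fech* in 96.97% and 67.9%. *Alas1* was found in 42.4% and 44.6%, shares that lie close together.

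*Alas1* was highest in E10.5 Endo (mean 98.95 CPM) and E10.5 EMP (93.3 CPM), but these means were built differently. The median cell of E10.5 Endo had 2.85 CPM and its highest cell 1207 CPM. Next in order came E8.5 Endo (51.3 CPM), E10.5 Mac (50.9 CPM), E9.5 EMP (45.1 CPM) and E10.5 Mk (36.1 CPM). The *Flk1*-GFP+ populations had 23.3 CPM at E7.25 and 17.4 CPM at E7.75, E8.5 EryP had 21.1 CPM, and E8.25 EMP (14.8 CPM), E8.5 EMP (13.7 CPM) and E8.5 Mk (8.91 CPM) were lowest among populations with counts. In all of these the lowest cell was at 0, so the ranges over cells overlapped throughout.

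*Alas2* fell into a much wider order. E10.5 EryP led with a mean of 4275 CPM, followed by E8.5 EryP with 1394 CPM and E8.5 Mk with 356 CPM. The next were E8.25 EMP (53.9 CPM), E8.5 EMP (38.1 CPM) and E7.75 *Flk1*-GFP+ (27.0 CPM), which overlapped in their cells. All other populations had means of 6.45 CPM or less.

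Low shares of cells with *Alas2* need a background. In E8.5 Endo *Klf1* and *Gata1* were at 0, but *Epor* was found in 31.6% of the 79 cells. There 19.0% of cells had at least 1 count of *Alas2* (median depth 1874640 counts), and the highest cell supplied 60.3% of the sum. The 17.7% of E7.25 *Flk1*-GFP+ cells with *Alas2* (median depth 1822220 counts, exact 95% interval 11.9 to 24.8%) lie next to this background, and the share alone was not read as expression. Thinned to 800000 counts per cell the shares were 11.4% in E8.5 Endo and 15.6% at E7.25. The 26 E7.25 cells with *Alas2* held *Gata1* in 46.2% of cases, against 27.3% of the other E7.25 cells, *Epor* in 30.8% against 12.4%, and *Hbb-bh1* in 23.1% against 6.61%. The 15 E8.5 Endo cells with *Alas2* held the embryonic globin *Hba-x* in 26.7% of cases, against 7.81% of the other E8.5 Endo cells. For *Epor* these shares were 33.3% and 31.25%, and for *Hbb-bh1* 6.67% and 10.9%. The 37.1% at E7.75 (exact 95% interval 29.1 to 45.7%, thinned 34.7%) lie above both, at a median depth of 2017800 counts. In E10.5 Mac *Alas2* was found in 36.0% of 25 cells (thinned 20.0%, median depth 3422340 counts), with no cell above 26.5 CPM and a median of 0. Globin counts were present in every E10.5 Mac cell (*Hbb-bh1* 0.182 to 24.3 CPM) and *Klf1* was at 0. These cells shared lane 5 with E10.5 EryP, and the part of the shared lane in this value was not tested.

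The 7 other genes had their highest means in EryP, apart from *Slc25a38*. The glycine carrier had its highest mean in E8.25 EMP (90.9 CPM), where 1 cell at 4263 CPM supplied 64.2% of the sum and the mean without it was 33.0 CPM. *Ppox*, whose exons share 791 bases with *B4galt3* on the opposite strand, had a mean of 161 CPM in E10.5 Mac, next after the EryP populations, of which 1 cell at 3553 CPM supplied 88.2%. The mean of the other E10.5 Mac cells was 19.9 CPM.

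**Figure D2:**
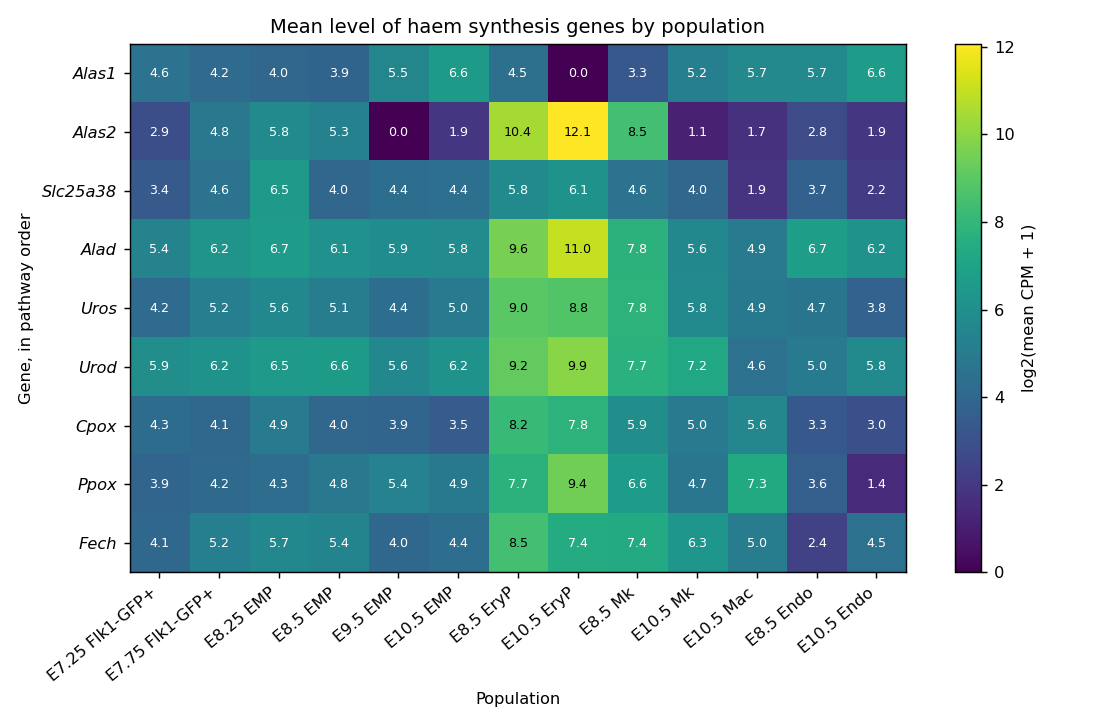
Mean level of each gene (rows, in pathway order) in each population (columns), as log2(mean CPM + 1), printed in each cell and coloured from 0 (dark) to 12.1 (light). Apart from *Alas1*, and *Slc25a38* in E8.25 EMP, the 2 EryP columns are the lightest, and the *Alas1* row is darkest in E10.5 EryP.

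In E8.5 EryP every cell held *Alad*, *Uros*, *Urod*, *Cpox*, *Ppox* and *Fech*. *Alad*, which joins aminolevulinic acid into porphobilinogen, ran from 171 CPM through a median of 721 to 1659 CPM. The lowest E8.5 EryP cell was thus above the E8.5 EMP mean of 67.8 CPM.

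*Uros*, which closes the porphyrin ring, ran from 9.29 CPM through a median of 488 to 1325 CPM. *Urod*, which trims its side chains, ran from 120 through 529 to 1635 CPM. *Cpox* ran from 21.7 through 245 to 1228 CPM. Among these the lowest cell was furthest below the median for *Uros*.

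The last steps and the glycine carrier reached lower. *Ppox* ran from 0.571 CPM through a median of 170 to 809 CPM. *Fech*, the ferrochelatase, ran from 3.49 through 310 to 1359 CPM. *Slc25a38* ran from 0 through 30.8 to 250 CPM, with counts in 86.4% of the 66 cells.

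E8.5 Mk cells spanned most of the way from 0 to these values. *Alad* ran from 0 through a median of 172 to 964 CPM there, *Uros* from 0 through 186 to 868 CPM and *Fech* from 0.738 through 84.5 to 1224 CPM. *Urod* had counts in all 37 cells, from 34.2 through 191 to 687 CPM, and *Cpox* (median 32.1 CPM), *Ppox* (52.4 CPM) and *Slc25a38* (3.88 CPM) were lower.

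The first question within E8.5, where 4 populations were captured at 1 stage and read on 1 flow cell, was how EryP compare with endothelium, progenitors and Mk. A gene was called higher or lower at a ratio of at least 2-fold between population means, taken as log2(mean CPM + 1), over 9104 genes with a mean of at least 10 CPM. This is a fold rule and not a test, and all 5 comparisons of E8.5 EryP share the same 66 cells.

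Against E8.5 Endo, 8 of the 9 genes were at least 2-fold higher in E8.5 EryP and *Alas1* was lower. Of all genes compared, 17.7% were higher and 24.9% lower by that rule. The median log2 ratio was 4.22 over the 9 genes and 0.07 over all genes. *Alas2* had 1394 against 6.02 CPM, a log2 ratio of 7.63, and *Fech*, which closes the pathway, had 354 against 4.26 CPM, a log2 ratio of 6.08. *Cpox* (4.86), *Uros* (4.30), *Urod* (4.22) and *Ppox* (4.10) followed, and *Alad* (2.88) and the glycine carrier *Slc25a38* (2.02) had the smallest ratios. *Alad* had the highest level of these genes in E8.5 Endo, 103.2 CPM with a median of 99.6 CPM and counts in 93.7% of 79 cells. *Alas1* had 21.1 CPM in E8.5 EryP against 51.3 CPM in E8.5 Endo, a log2 ratio of -1.24. *Alas1* passed the 2-fold mark in the mean and in the median, and missed it at -0.89 without the cells that held *Xist* and Y-linked counts and at -0.98 with a pseudocount of 10 CPM.

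Against E8.5 EMP the 8 genes other than *Alas1* were higher, where 6.77% of all genes were higher and 20.2% lower. The median log2 ratio was 3.04 over the 9 genes and -0.01 over all. The ratios were 5.16 for *Alas2*, 4.19 for *Cpox*, 3.84 for *Uros*, 3.48 for *Alad*, 3.04 for *Fech*, 2.92 for *Ppox*, 2.59 for *Urod* and 1.79 for *Slc25a38*, all on the log2 scale. *Alas1* was 0.59 apart and its median was 0 CPM in both populations. With CPM taken from total counts, which gives weight to the globins that fill EryP, the background was 4.27% higher and 24.0% lower, and 8 of the 9 genes were again above 2-fold.

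Against E8.5 Mk all 9 genes were at least 2-fold higher, but most by little. The median log2 ratio was 1.19 over the 9 genes and 0.00 over all. The background was 7.4% higher and 14.3% lower. *Cpox* stood furthest apart (log2 ratio 2.21), then *Alas2* (1.97), *Alad* (1.83) and *Urod* (1.47), while *Slc25a38*, *Uros*, *Alas1*, *Fech* and *Ppox* lay between 1.11 and 1.19. The count of 9 was 6 on counts thinned to 800000 per cell and 7 with CPM from total counts, with *Fech* at 0.99 and *Ppox* at 0.93. The *Alas1* ratio of 1.15 came from means of 21.1 and 8.91 CPM with medians of 0 in both, and 49.5% of the E8.5 Mk sum was in 1 cell.

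Overlap between cells differed by gene. For *Alas2*, *Alad*, *Urod* and *Cpox*, every E8.5 EryP cell was above the median cell of E8.5 Endo and of E8.5 EMP. Only 1 of 37 E8.5 Mk cells exceeded the EryP median of *Alas2*, against 9 of 37 for *Ppox*. *Slc25a38* overlapped more, with 86.4% of EryP cells above the E8.5 Endo median and 21.3% of E8.5 EMP cells above the EryP median of 30.8 CPM.

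**Figure D3:**
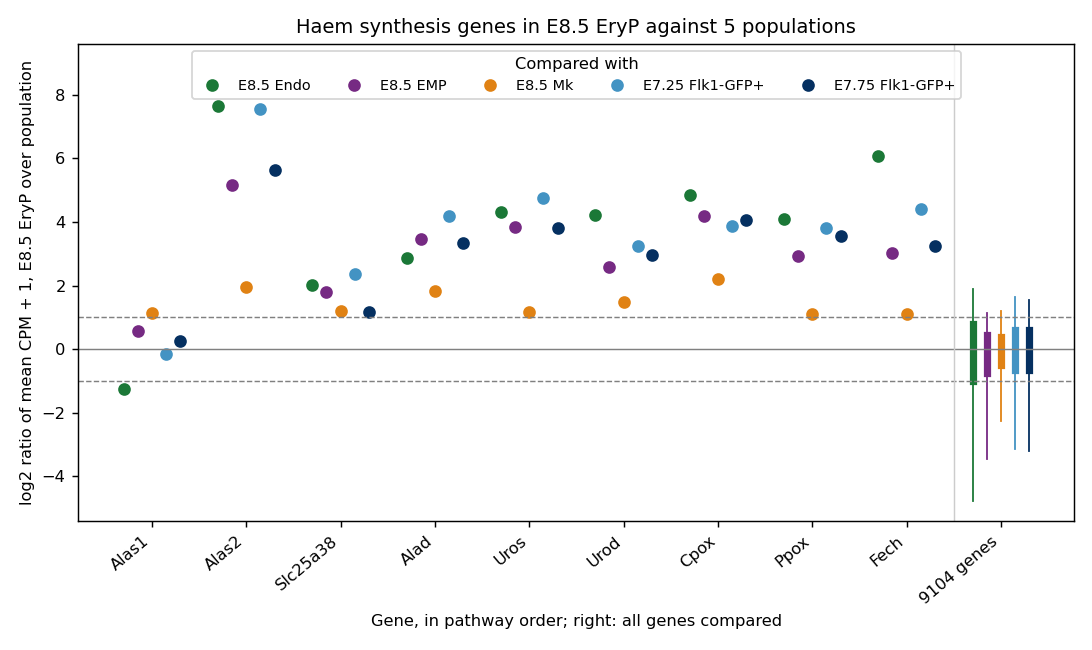
Log2 ratio of mean CPM + 1 for each gene in E8.5 EryP over each of 5 populations (coloured points), with dashed lines at 2-fold and, at the right, the interquartile range (thick bar) and the 5th to 95th percentiles (thin line) of all genes compared. *Alas1* points lie between -1.24 and 1.15, and every other point lies above the upper dashed line, lowest against E8.5 Mk for each gene except *Slc25a38*, which was lowest against E7.75.

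Against the earlier *Flk1*-GFP+ cells the 8 genes other than *Alas1* were higher in E8.5 EryP at both stages. For E7.25 the background was 12.2% higher and 18.4% lower, and for E7.75 it was 12.8% higher and 18.7% lower. With CPM from total counts these splits were 8.37% and 21.9%, and 7.48% and 23.1%. *Alas2* had log2 ratios of 7.55 and 5.64 over E7.25 and E7.75, *Uros* 4.76 and 3.80, *Fech* 4.40 and 3.25, and *Urod* 3.23 and 2.97. *Slc25a38* had 2.37 and 1.16, and *Alas1* -0.14 and 0.27. Against E7.75 *Slc25a38* missed the 2-fold mark at 0.91 with CPM from total counts, 0.91 on thinned counts, 0.93 with a pseudocount of 10 CPM and 0.89 with all captured cells. The median log2 ratio over the 9 genes was 3.87 and 3.35, against 0.07 and 0.06 over all genes. E7.25 shared the flow cell of E8.5 EryP and E7.75 did not, and both stages were dissociated with trypsin, the later ones with collagenase and dispase.

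The enzymes were already detectable in the E7.25 cells, unevenly by step. *Urod* was found in 93.9% of cells with a median of 56.2 CPM, *Alad* in 86.4% with a median of 32.8 CPM and *Cpox* in 83.7% with a median of 5.17 CPM. *Ppox* (47.6%), *Fech* (51.0%), *Slc25a38* (53.1%), *Uros* (55.8%) and *Alas1* (59.9%) were found in about as many cells as not. At E7.75 the means of *Alad* (73.8 against 40.6 CPM), *Fech* (36.3 against 15.8 CPM), *Uros* (35.0 against 17.5 CPM) and *Slc25a38* (23.3 against 9.53 CPM) were higher, while *Cpox* (16.1 against 18.5 CPM) and *Urod* (73.2 against 60.6 CPM) were close.

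Lanes of a stage differed by as much as some of these values. At E7.75 the mean of *Alas2* was 49.0 CPM in lane 7 (53 cells) and 13.6 CPM in lane 8 (87 cells), and that of *Alad* 104.6 and 55.0 CPM. At E7.25 *Alas2* was 9.58 CPM in lane 6 and 3.35 CPM in lane 7. Each of the E7.75 lanes was above each of the E7.25 lanes for *Alas2*, *Alad*, *Fech*, *Uros* and *Slc25a38*. The number of genes at least 2-fold higher in E8.5 EryP was 8 against each lane, save 7 against lane 7 of E7.75, where *Slc25a38* had a log2 ratio of 0.67.

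In E7.75 *Flk1*-GFP+ cells *Alas2* went with erythroid genes more closely than with the rest of the pathway. *Klf1* was found in 59.6% of the 52 cells with *Alas2* and in 21.6% of the 88 without, *Epor* in 69.2% and 26.1%, and *Alas1* in 50.0% and 48.9%. Over the 140 cells Spearman's rho of *Alas2* was 0.56 with *Epor* and 0.55 with *Gata1*, and between 0.01 (*Slc25a38*) and 0.32 (*Cpox*) with the other members apart from *Alas1*. These coefficients are over cells of 1 sample and describe them only.

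*Alas2* varied widely among E8.5 Mk cells, in step with the embryonic globins but not with every erythroid gene. It ran from 0 through a median of 168 CPM to 1530 CPM, with counts in 94.6% of 37 cells. Over these cells *Alas2* had a rho of 0.93 with *Hba-x* and 0.86 with *Hbb-bh1*, both embryonic globins, and 0.58 with *Klf1*, against -0.09 with *Gata1*, -0.07 with *Epor* and -0.40 with *Pf4*, the platelet factor. Among the members it had a rho of 0.83 with *Ppox*, 0.76 with *Alad*, 0.75 with *Cpox* and 0.58 with *Fech*, against 0.20 with *Urod*. With the total counts of a cell *Alas2* had a rho of -0.38, and the members ran from -0.47 (*Alad*) to -0.04 (*Uros*). The part of depth in these coefficients was not tested. In E10.5 Mk *Alas2* was found in 4.11% of 73 cells with a mean of 1.16 CPM, while *Urod* had a mean of 149.1 CPM, *Fech* 79.1 CPM and *Uros* 53.7 CPM, each the highest among the populations outside EryP and E8.5 Mk. The gate of E8.5 Mk took TER119- cells, and the E8.5 and E10.5 Mk were on different flow cells.

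**Figure D4:**
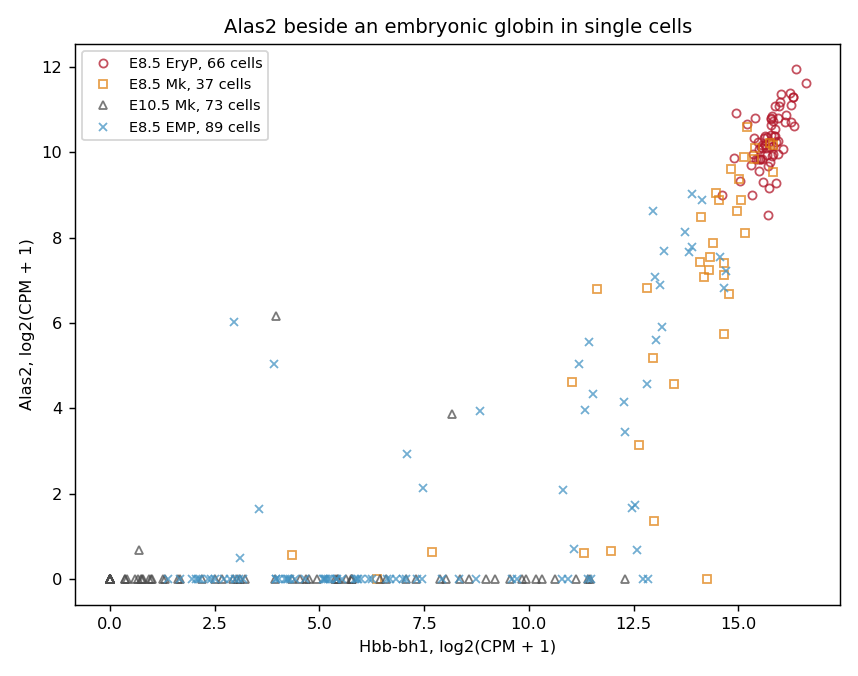
*Alas2* against the embryonic globin *Hbb-bh1* in single cells, both as log2(CPM + 1), for E8.5 EryP, E8.5 Mk, E10.5 Mk and E8.5 EMP. E8.5 EryP cells form a group at the upper right, E8.5 Mk cells reach from it down to an *Alas2* of 0, and all but 3 E10.5 Mk cells have no *Alas2*.

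Within E8.5 EryP the enzymes varied together only loosely. Over 66 cells the rho of the 28 pairs among the genes other than *Alas1* had a median of 0.14 and ran from -0.21 (*Slc25a38* with *Cpox*) to 0.41 (*Alas2* with *Urod*). In E8.5 Mk the median over the same pairs was 0.41. *Alas2* (0.67) and *Urod* (0.61) had the strongest coefficients with the share of counts that globins took in a cell, which ran from 4.25 to 17.1%, and *Fech* had 0.02. All values of a cell share its scaling, and the part of that in these coefficients was not tested. The rho of the members with total counts lay between -0.19 and 0.12.

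The levels per kilobase in E8.5 EryP put the early and middle enzymes other than *Alas1* above the late ones, and the glycine carrier below them. *Alas2* had a mean of 580 and *Alad* 408 CPM per kilobase, *Urod* 223 and *Uros* 140, *Ppox* 46.8, *Cpox* 42.6 and *Fech* 25.6, with *Slc25a38* at 19.4. *Ppox* and *Cpox* differed by less than the spread of their cells. The exon lengths are sums over all annotated exons and reach 13838 bases for *Fech*. With the longest annotated transcript as the length, a choice made after seeing the data, *Cpox* had 91.7, *Fech* 53.8 and *Ppox* 47.9 CPM per kilobase, so the order of the last 3 enzymes depends on the length used. *Urod* then had 389 and *Uros* 228 CPM per kilobase, both still above the last 3.

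From E8.5 to E10.5 the EryP comparison rests on 3 cells. Among the 9104 genes 12.2% were at least 2-fold higher and 50.7% lower in E10.5 EryP, and the median log2 ratio was -1.05. Globins took 31.5 to 36.0% of the counts of the 3 cells. *Ppox* (log2 ratio 1.70), *Alas2* (1.62) and *Alad* (1.44) were above 2-fold, which is 2.75, 2.67 and 2.49 above the median gene. *Urod* (0.75), *Slc25a38* (0.37), *Uros* (-0.17) and *Cpox* (-0.34) were between, and *Fech* (-1.06) was as low as the median gene. With CPM from total counts the median gene was at -1.36, *Alad* at 0.96 and 2 genes, *Alas2* (1.21) and *Ppox* (1.39), were above 2-fold. *Alas1* had no count, and its mean in E8.5 EryP was 37.3 times a level of 3 counts over the E10.5 group. As 71.2% of E8.5 EryP cells had no *Alas1* count either, 3 cells set no bound on this change.

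The 3 cells did not behave alike. *Ppox* was at 1021, 16.3 and 1026 CPM in cells 5, 15 and 18, so that 1 of them lay near the low end of the E8.5 range. *Fech* was at 347, 136.2 and 22.4 CPM, *Uros* at 282, 880 and 175 CPM, and *Slc25a38* at 44.8, 158.2 and 4.48 CPM. *Urod* was the steadiest, at 877, 949 and 1086 CPM, and *Alad* was at 2093, 3110 and 1026 CPM. Leaving out cell 15 moved the *Slc25a38* log2 ratio to -1.08 and that of *Uros* to -1.13, and leaving out cell 5 moved *Fech* to -2.14, while *Alas2*, *Alad* and *Ppox* stayed above 2-fold without any 1 of the cells.

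**Figure D5:**
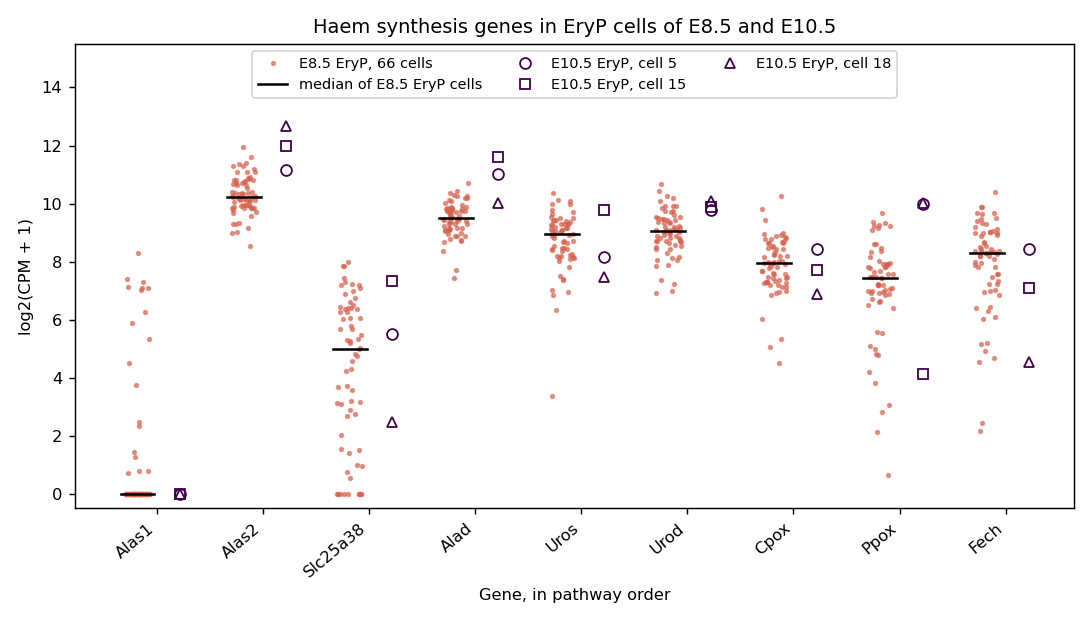
Each gene in E8.5 EryP cells (dots, with a black line at the median) and in the 3 E10.5 EryP cells (open symbols), as log2(CPM + 1), in pathway order. The E10.5 cells lie at or above the E8.5 median for *Alas2*, *Alad* and *Urod*, below or around it for *Cpox*, and apart from each other for *Ppox*, *Fech*, *Uros* and *Slc25a38*.

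When all captured cells were taken, 25 at E10.5 and 84 at E8.5, with CPM of total counts, the ratios of those 3 genes turned. *Alas2* then had a log2 ratio of -0.23, *Alad* -0.80 and *Ppox* -0.45, and 1 gene, *Cpox* (1.05), was at least 2-fold higher. That *Cpox* ratio leans on 1 left-out E10.5 EryP cell at 10233 CPM, where the median of the 22 left-out cells was 15.6 CPM. The 22 E10.5 EryP cells left out by the filter had 27656 to 3606368 counts, and globins took a median of 1.60% of their counts.

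Genes that serve the pathway were higher in part. Of 28 listed partners, which supply precursors, carry metabolites and iron or build iron-sulphur clusters, 22 passed the level filter. Of these, 13 were at least 2-fold higher and 1 lower in E8.5 EryP than in E8.5 Endo, 8 and 1 than in E8.5 EMP, and 6 and 0 than in E8.5 Mk, with median log2 ratios of 1.09, 0.65 and 0.44 against medians of 0.07, -0.01 and 0.00 over all genes. Against E7.25 and E7.75 the counts were 10 higher and 1 lower, and 10 higher and 0 lower. The shares of all genes higher in these 5 comparisons, given above, ran from 6.77 to 17.7%. From E8.5 to E10.5 EryP 3 of the 22 were higher and 7 lower, where 12.2% of all genes were higher and 50.7% lower, and the median log2 ratio was -0.33 against -1.05 over all genes.

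Those furthest above the mean of the other 3 E8.5 populations are mostly of the mitochondrial membrane. *Slc25a37*, which encodes mitoferrin, the importer of iron into the mitochondrion, had 1782 CPM in E8.5 EryP against 114.6 CPM (log2 ratio 3.95). *Abcb10*, a transporter of the inner mitochondrial membrane, had 296 against 37.9 CPM (2.93). On the same measure *Alad* had 2.56 and *Uros* 2.42. *Fam210b*, of the mitochondrial inner membrane, had 163 against 27.9 CPM (2.51). *Slc6a9*, a glycine transporter of the cell surface, had 7.38 against 0.618 CPM (2.37) and did not pass the level filter.

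Genes of haem breakdown and of sensing split in direction. Of 6 breakdown and export genes that passed the filter, 3 were higher and 1 lower than in E8.5 Endo, 2 and 2 against E8.5 EMP, and 3 and 1 against E8.5 Mk. Their median log2 ratios were 0.62, -0.12 and 0.53, where 17.7%, 6.77% and 7.4% of all genes were higher and 24.9%, 20.2% and 14.3% lower. Against E7.25 and E7.75 the counts were 4 and 1 at both stages, where 12.2% and 12.8% of all genes were higher and 18.4% and 18.7% lower. From E8.5 to E10.5 EryP they were 3 and 1, where 12.2% of all genes were higher and 50.7% lower. *Blvrb*, biliverdin reductase B, had 685 CPM in E8.5 EryP against 82.2 CPM (log2 ratio 3.04), and *Abcg2*, a porphyrin exporter, 626 against 210 CPM (1.57). *Hmox1*, the inducible haem oxygenase that opens the ring, had 2.12 against 21.3 CPM (-2.84), with counts in 2 of 66 E8.5 EryP cells and 66 of 79 E8.5 Endo cells. It had 1 count in E8.5 Mk, so its level was low in both TER119+ EryP and E8.5 Mk, and it is 1 of the 3 counted as higher there only through the 282 counts of those 2 EryP cells.

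Of the 4 sensing genes that passed, 1 was higher in E8.5 EryP in each comparison within E8.5 and against E7.25 and E7.75. Against E8.5 Endo and against E7.25, 1 was lower, and from E8.5 to E10.5 EryP 0 were higher and 2 lower. Of all genes, 17.7% were higher and 24.9% lower against E8.5 Endo. These shares were 6.77% and 20.2% against E8.5 EMP, and 7.4% and 14.3% against E8.5 Mk. They were 12.2% and 18.4% against E7.25, and 12.8% and 18.7% against E7.75. From E8.5 to E10.5 EryP they were 12.2% and 50.7%. With 4 genes, the counts cannot be set apart from these shares. Their median log2 ratio was -0.73 against E8.5 Endo, -0.51 against E8.5 EMP and 0.26 against E8.5 Mk. The gene above the 2-fold mark over the mean of the other 3 E8.5 populations was *Eif2ak1*, the haem-regulated kinase that slows globin translation when haem is short, with 231 against 89.9 CPM (log2 ratio 1.35). It was the higher gene against E8.5 Endo (2.70), E8.5 EMP (1.46), E7.25 (2.49) and E7.75 (2.28), but not against E8.5 Mk (0.60). There the higher gene was *Aco1*, an iron-regulatory protein, with 34.3 against 15.4 CPM (1.10), and *Aco1* was the lower gene against E8.5 Endo (-1.37). Neither *Bach2* nor *Nr1d2* passed the level filter. *Bach2*, a repressor of the BACH family, had no count in E8.5 EryP and 11.4 CPM over the others, and *Nr1d2*, a haem-binding nuclear receptor, had 3.78 against 16.9 CPM (-1.90), which came mostly from E8.5 Mk (43.4 CPM).

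Among the genes most like *Alas2* over the 13 population means, by Pearson's r of log2(CPM + 1) among 9104 genes, were *Ank1* (r = 0.97), which encodes ankyrin of the red cell skeleton, *Epb42* (0.97), another protein of that skeleton, *Trib3* (0.96) and *Reep6* (0.95). The members ranked between 27th (*Alad*, 0.91) and 507th (*Ppox*, 0.65) in likeness to *Alas2*, with *Uros* 31st (0.90), *Urod* 65th (0.86), *Fech* 183rd (0.77) and *Slc25a38* 440th (0.68). *Cpox* had an r of 0.81, and *Alas1* ranked 9009th (-0.82). Most like *Alas1* were *Casp9* (0.95), *Alg5* (0.95), *Chd9* (0.94), *Fndc3a* (0.94) and *Lgals8* (0.93). These coefficients are over 13 populations that share flow cells and depth, and carry no test.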

How the data were processed

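Single yolk sac cells were sorted, captured on the Fluidigm C1 system, made into Nextera XT libraries and sequenced on a HiSeq; the authors aligned the reads with Rsubread to GRCm38 and made the deposited counts with featureCounts (versions not given in the sources used here). A deposited signal table holds CPM that the authors scaled per cell with scran size factors after a scater filter. CPM sums per cell are 699615 to 4176737, since each value is a count times 1 factor per cell. Reads carry no molecular identifiers, so intervals cover counting error only.

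Population levels are means of deposited CPM over cells, and ratios are log2(mean CPM + 1) differences, which understate the change of low genes. Calls are 2-fold or more. A gene counts as detected at 1 count. Intervals are exact (Clopper-Pearson or Poisson, 95%), and a count of 0 was set to 3 counts over the group. No test was run, because cells of 1 sample are not replicates. Replicate numbers only name cells. The C1 system holds each cell at a capture site, and no doublet caller was run. Depth per cell limits detection, so shares were repeated on 800000 counts per cell.

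Exon lengths came from GENCODE M21, promoters from RefSeq. The kit is not stated to keep strand: *Apex2* overlaps 12.9% of the *Alas2* exons and *B4galt3* 17.5% of the *Ppox* exons on the opposite strand, and reads there cannot be told apart. The members and lists were chosen with earlier results of these data known. Genes outside the members were named by size of ratio (5 highest and 3 lowest list genes, and every breakdown or sensing gene past 2-fold, in E8.5 EryP over the mean of the other 3 E8.5 populations) or by likeness (the 5 genes most like each of *Alas1* and *Alas2*). Some items that these rules and lists name are not reported here, and list counts and marker sums leave them out. The fold rule was tried on counts simulated for E8.5 EryP and E8.5 Endo only. That trial did not cover E10.5 EryP or the scran scaling. Values were computed with scipy 1.17.1, pandas 2.3.3 and numpy 2.4.6 under Python 3.11.15, and drawn with matplotlib 3.10.9.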

Additional observations from a re-analysis of the deposited data

Results flagged for a closer look

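The 22 E10.5 EryP cells outside the filtered tables carried counts of most of the pathway more often than the other cells that the filter left out, with all other populations pooled. *Alas2*, *Alad*, *Cpox* and *Fech* were found in 100% of the 22 cells (exact 95% interval from 84.6%), against 32.0%, 48.8%, 36.8% and 37.6% of the others. *Urod* was found in 90.9% against 52.8% and *Uros* in 86.4% against 39.2%. *Alas1* (9.09% against 24.8%), *Slc25a38* (22.7% against 16.8%) and *Ppox* (68.2% against 47.2%) had overlapping intervals. The pool held 18 E8.5 EryP cells, so the difference was not particular to E10.5 EryP. In those 18 cells *Alas2* was found in 83.3%, *Alad* in 94.4%, *Fech* in 77.8%, *Cpox* and *Urod* in 72.2% and *Uros* in 50.0%. For each of these genes the interval overlapped that of the 22 E10.5 EryP cells. The levels were low in most of the 22 E10.5 EryP cells: as CPM of total counts, *Alas2* had a median of 18.5 and a highest cell of 8008, and *Fech* a median of 8.99 and a highest cell of 918. Their median total was 701329 counts, and the difference in depth and in population was not tested.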

How the results depend on the processing

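Over 6 comparisons and 9 genes, 426 of 495 alternative log2 ratios stayed within a factor of 1.5 of the reported value, 66 moved further without a called value changing sign, and 3 reversed. The 3 were *Alas2* (-0.23), *Alad* (-0.80) and *Ppox* (-0.45) in E10.5 over E8.5 EryP with all captured cells, where the number of genes at least 2-fold higher was 1 in place of 3; without each E10.5 EryP cell in turn it was 3 to 3. Each other alternative gave a number of higher genes within a factor of 1.5; with CPM from total counts, and thinned, it was 2 there, and against E7.75 *Flk1*-GFP+ it was 7 in place of 8, as it was there with a pseudocount of 10 CPM, with all captured cells and against lane 7 alone. The *Alas2* to *Alas1* log2 ratio per kilobase in E8.5 EryP was 11.60 from medians over cells (with 1 CPM added, since the *Alas1* median is 0) and 6.79 with longest transcripts. Medians over cells moved 36 of 54 ratios. Means without the highest cell of each population, an alternative chosen after seeing the data, moved 5 of 54. At 10 counts or more, 18 of 26 shares of cells with *Alas1* or *Alas2* left their interval; thinned, 1 of 26 did. The median gene shifted by -1.36 in place of -1.05 for E10.5 over E8.5 EryP with CPM from total counts, and by -0.23 to -0.07 in the other comparisons. With a filter at 100 CPM the background against E8.5 Mk was 3.48% higher. Shallow cells limit what can be said of absent genes, above all *Alas1* in 3 E10.5 EryP cells. No paired analysis was possible because replicate numbers only name cells and no test was run.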
